A study of Mus musculus with 12 samples.

Results

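Expression of 10 genes that mark the dividing cells of the embryonic neocortex was followed through the 12 RNA-seq libraries: Pax6, Sox2, Emx2, Nes, Vim, Fabp7, Hopx, Sox9, Neurog2 and Eomes. They were taken by symbol, 10 of the 46603 Ensembl gene identifiers counted at both stages, and every one of the 10 passed the filter on low counts in every comparison. Neocortex was microdissected from C57Bl/6J mice at E12.5 (both hemispheres) and at P5 (a single hemisphere), and each stage has 3 Chd8+/+ and 3 Chd8+/- libraries. Chd8 encodes a chromatin remodeling factor. Chd8+/- mice carry 1 null allele, made by deleting the floxed exon 3 with a ubiquitously active β-actinCre and then breeding the Cre out, so that the deletion is not limited to the cortex. The controls are wild type, and no group was treated. The labels do not say whether the 3 libraries of a group came from separate animals, so that p-values measure the spread between these libraries only.

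Radial glia are the stem cells of the developing cortex. They line the ventricle, span its wall with a long fibre, and divide to give neurons either directly or through intermediate progenitors, which leave the ventricle and divide again. As neurogenesis ends, radial glia turn to making glia, and several of their genes stay on in astrocytes. Among the 10 genes, Pax6, Sox2 and Emx2 encode transcription factors of cortical radial glia, Nes (nestin) and Vim (vimentin) encode intermediate filament proteins of their fibres, and Fabp7 encodes the brain fatty acid binding protein. Hopx, a small homeodomain protein, marks outer radial glia in species with a large cortex, and Sox9 is a factor of radial glia and astrocytes. Neurog2, a proneural factor, is switched on as cells become committed to neurons, and Eomes (Tbr2) marks intermediate progenitors.

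In GRCm38 coordinates, Eomes lies at chr9:118478212-118486132 on the plus strand and Neurog2 at chr3:127633135-127635631 on the plus strand, the 2 genes that fell most between the stages. Fabp7 lies at chr10:57784881-57788450 on the plus strand and Hopx at chr5:77086988-77115121 on the minus strand, the 2 genes that rose. Their RefSeq promoter windows (build GRCm38.p6, 250 bases before to 50 after an annotated start) are printed 5′ to 3′ because these 4 genes hold the opposite ends of the change with age, with motif matches on either strand in capitals, so that a CCAAT on the opposite strand reads ATTGG and a CAGATG reads CATCTG. They span chr9:118477939-118478238 (plus strand) for Eomes, chr3:127632886-127633185 (plus strand) for Neurog2, chr10:57784673-57784972 (plus strand) for Fabp7 and chr5:77115074-77115373 (minus strand) for the upstream start of Hopx.
Eomes: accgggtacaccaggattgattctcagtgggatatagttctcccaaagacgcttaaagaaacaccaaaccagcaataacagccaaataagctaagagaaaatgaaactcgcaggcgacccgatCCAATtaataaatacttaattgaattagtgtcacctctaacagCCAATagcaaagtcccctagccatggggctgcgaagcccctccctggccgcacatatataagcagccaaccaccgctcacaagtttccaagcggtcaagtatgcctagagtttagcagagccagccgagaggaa
Neurog2: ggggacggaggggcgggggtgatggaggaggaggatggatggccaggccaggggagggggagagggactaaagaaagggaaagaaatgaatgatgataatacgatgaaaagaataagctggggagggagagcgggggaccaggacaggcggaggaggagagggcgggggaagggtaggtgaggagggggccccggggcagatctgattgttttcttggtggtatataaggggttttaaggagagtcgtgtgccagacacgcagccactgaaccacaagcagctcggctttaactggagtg
Fabp7: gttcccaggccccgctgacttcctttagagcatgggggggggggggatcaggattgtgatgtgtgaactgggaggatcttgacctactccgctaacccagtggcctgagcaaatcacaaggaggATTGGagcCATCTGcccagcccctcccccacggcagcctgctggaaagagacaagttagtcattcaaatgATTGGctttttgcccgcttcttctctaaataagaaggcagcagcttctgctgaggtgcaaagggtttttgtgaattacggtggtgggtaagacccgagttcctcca
Hopx: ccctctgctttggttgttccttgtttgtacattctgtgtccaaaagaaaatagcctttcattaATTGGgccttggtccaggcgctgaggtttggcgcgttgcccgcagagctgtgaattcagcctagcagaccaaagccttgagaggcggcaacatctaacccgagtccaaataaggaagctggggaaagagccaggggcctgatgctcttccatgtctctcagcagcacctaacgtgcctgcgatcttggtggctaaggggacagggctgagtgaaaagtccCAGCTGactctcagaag

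The motifs searched on both strands were the E-boxes CAGATG and CAGCTG, the SOX motif ACAAAG, the homeodomain motif TAATTA, the TATA motif TATAAA and the motif CCAAT. RefSeq windows were found for 9 of the 10 genes, 11 windows in all, and no matches in them shared bases. CCAAT was in 8 of the 11 windows and in 37.4% of all 32851 windows of the same length. The Eomes window holds it on its own strand, starting 127 and 84 bases before the start, and the Fabp7 window holds it on the opposite strand, 126 and 56 bases before the start. CAGATG, an E-box, was in the Fabp7 window alone, against 17.2% of all windows, and CAGCTG in the Hopx window alone, against 16.3%. ACAAAG was in 1 window each of Pax6 and Sox2 (18.7% of all windows), TAATTA in that of Emx2 (5.29%) and TATAAA in that of Vim (13.6%). The Neurog2 and Nes windows hold none of the motifs. The genes without a printed window lie at chr2:105668900-105697364 (Pax6), chr3:34650405-34652461 (Sox2), chr19:59458372-59465357 (Emx2), chr3:87971078-87980451 (Nes), chr2:13573927-13582826 (Vim) and chr11:112782224-112787760 (Sox9), all on the plus strand. A match is a description of the sequence and no sign of a bound site.

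The deposited counts of a library's 2 sequencing runs were summed, which gave 38774591 to 54695236 counts per library. Chd8 itself, the targeted gene, was at 229 to 235 CPM (counts scaled to a common library total after TMM normalization) in the E12.5 Chd8+/+ libraries and 161 to 167 in the Chd8+/- libraries, and at 145 to 151 against 95.01 to 98.6 at P5, counted over the whole gene and not the deleted exon alone. It was the only gene past an adjusted p of 0.05 between genotypes at either stage in edgeR's quasi-likelihood test, with adjusted p = 0.00562 at E12.5 and 7.21e-05 at P5. The number of genes called depended on the setting. At E12.5 it was 5 with DESeq2, 13 with every gene of at least 1 count, and 0 with a term for Xist chosen after seeing the data and when Chd8+/+ replicate 3, Chd8+/- replicate 1 or Chd8+/- replicate 3 was left out. At P5 it was 653 with DESeq2, 995 with every gene of at least 1 count and 327 without Chd8+/- replicate 2. Xist, the RNA of the inactive X chromosome, was at 34849 to 96118 counts in 1 library of each group (Chd8+/+ replicate 3 and Chd8+/- replicate 1 at E12.5, replicate 1 of both genotypes at P5) and at 8 to 114 counts in the other 8, so that it was balanced over the groups. Emx1, a factor of the dorsal cortex, was at 49.8 CPM on average in the E12.5 Chd8+/+ libraries. Markers of ventral telencephalic progenitors were present too, with Dlx2 at 128 and Nkx2-1 at 84.5 CPM.

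How far the progenitor genes differ between the embryonic and the postnatal cortex was measured first in Chd8+/+ tissue. Of the 10 genes, 8 fell by more than 2-fold and 2 rose by less than 2-fold. All 10 passed an adjusted p of 0.05 in edgeR's quasi-likelihood test with Benjamini-Hochberg adjustment, where 84% of the 19039 genes tested also passed, 42.3% of the genes lower and 41.7% higher at P5. A call with a fall of more than 2-fold was made for 20% of all genes and for 8 of the 10, and a call with a rise of more than 2-fold for 26.1% of all genes and none of the 10. Fabp7 lay at the edge of this count, with a log2 fold change of 0.98 that became 1.02 with RLE scaling and 1.02 with DESeq2, which makes the count 1. DESeq2 called 62.1% of 25714 genes and all 10. The median log2 fold change of the 10 genes was -3.46, and that of all genes tested was -0.02. Stage cannot be told apart from anything else that differed between the E12.5 and the P5 libraries, such as the number of hemispheres or the separate count tables, and in bulk tissue fewer cells of a type and less RNA per cell cannot be told apart.

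Neurog2 and Eomes, the genes of commitment and of intermediate progenitors, fell furthest. Neurog2 was at 103, 101 and 105 CPM in the E12.5 Chd8+/+ libraries and at 1.53, 1.54 and 1.61 CPM in the P5 ones. The log2 change was -6.04 (SE, the standard error, 0.0701, edgeR adjusted p = 1.68e-14), a 65.9-fold fall. Only 43 of the 19039 genes tested, 0.226%, had a lower value. Eomes went from 149, 150.3 and 159 CPM to 4.45, 4.50 and 3.95 CPM. The log2 change was -5.15 (SE 0.0612, edgeR adjusted p = 1.82e-14), a 35.4-fold fall. The low P5 level of Neurog2 rests on 67 to 82 counts per Chd8+/+ library, and that of Eomes on 179 to 239 counts.

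The radial glia filaments came next. Nes was at 809.7, 784 and 893 CPM at E12.5 and at 53.8, 53.6 and 45.5 CPM at P5, with a log2 change of -4.02 (SE 0.0874, edgeR adjusted p = 8.76e-13). Vim was at 1043, 1148 and 1146 CPM and then at 94.6, 95.9 and 86.8 CPM, with a log2 change of -3.59 (SE 0.0732, edgeR adjusted p = 5.35e-13). The 3 replicates of each gene lay close together at both stages, and the stages were separated by more than 10-fold.

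Among the transcription factors of radial glia, Pax6 and Emx2 fell by more than Sox2 and Sox9. Pax6 was at 159.5, 145 and 152 CPM at E12.5 and at 14.1, 13.2 and 13.6 CPM at P5, an 11.2-fold fall (95% interval 10.3 to 12.1). Emx2 was at 121, 109.9 and 118 CPM and then at 10.2, 11.3 and 10.6 CPM, a 10.9-fold fall (9.91 to 11.9). The intervals of these 2 genes overlap. Sox2 was at 231, 196 and 229 CPM and then at 47.4, 47.8 and 43.0 CPM, a 4.74-fold fall (4.28 to 5.25). Sox9 was at 122, 107 and 141 CPM and then at 23.4, 25.04 and 21.3 CPM, a 5.30-fold fall (4.60 to 6.12). The intervals of Sox2 and Sox9 overlap each other and lie wholly above 4-fold and below 7-fold, apart from those of Pax6 and Emx2. The adjusted p from edgeR of these 4 genes ran from 8.25e-14 (Pax6) to 1.51e-10 (Sox9).

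Fabp7 and Hopx went the other way. Fabp7 was at 217, 255 and 234 CPM at E12.5 and at 476, 519 and 401 CPM at P5, with every P5 library above every E12.5 library. The log2 change was 0.98 (SE 0.0917, edgeR adjusted p = 6.56e-07), a 1.98-fold rise. Hopx was at 7.61, 7.98 and 8.84 CPM at E12.5 and at 10.6, 10.2 and 10.3 CPM at P5, again without overlap. The log2 change was 0.35 (SE 0.0820, edgeR adjusted p = 0.00178), a 1.27-fold rise. Hopx shares 412 exon bases, 27.2% of its exon length, with Hopxos, a gene annotated on the opposite strand, and the command given for counting the P5 libraries sets no strand option. Reads of the shared stretch cannot be told apart by strand there, and how they were assigned was not tested. Hopxos itself had at most 0.282 CPM in any library, which is therefore no measure of its part in the level of Hopx.

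**Figure D1:**
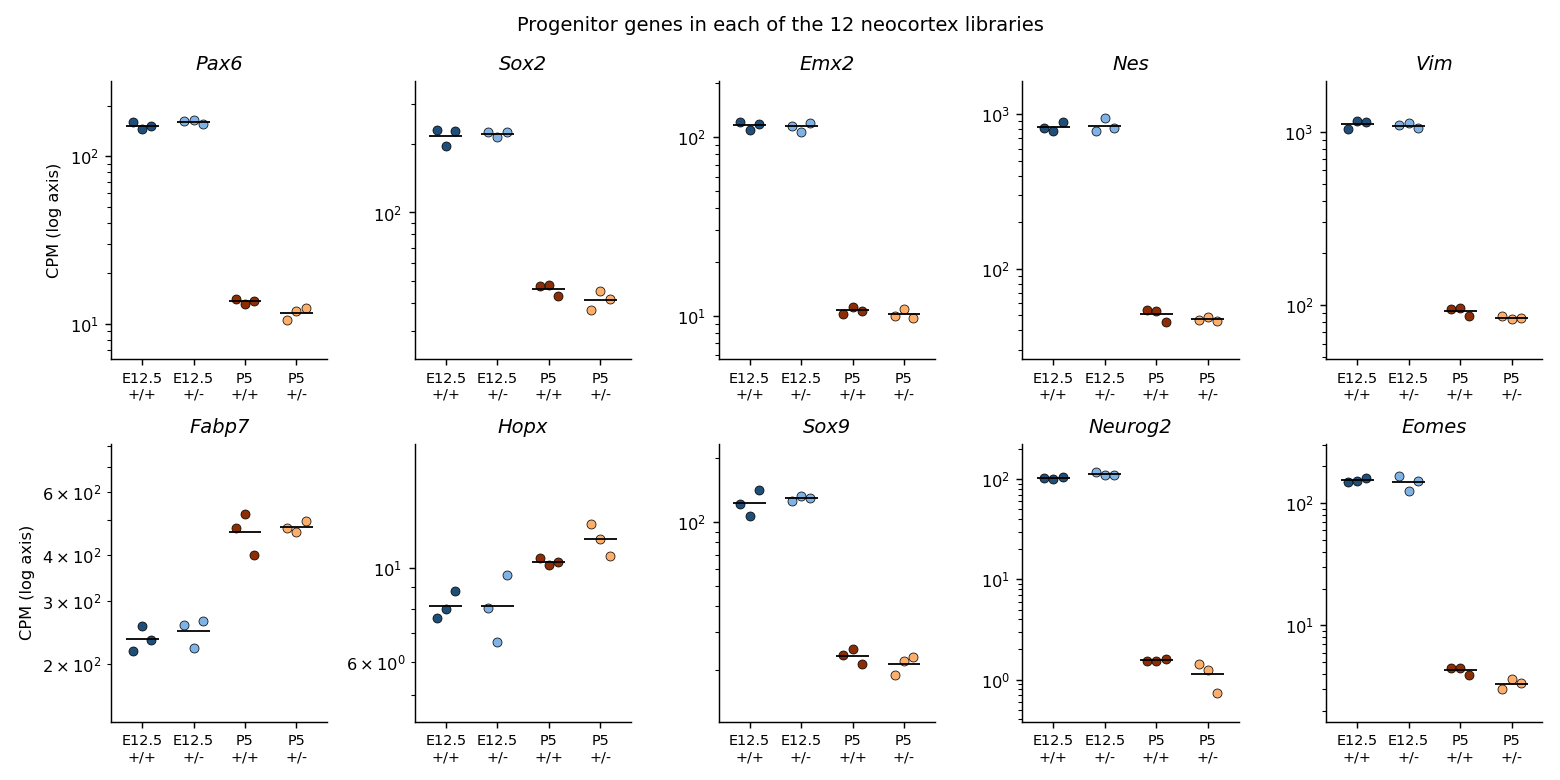
Level of each of the 10 genes in each of the 12 libraries, in CPM on a log axis, with a point for each library and a line at the mean of the 3 libraries of a group. The P5 libraries lie below the E12.5 libraries for 8 genes and above them for Fabp7 and Hopx. The means of the genotypes at a stage lie closer together than those of the stages. At P5 the genotypes do not overlap for Pax6, Vim, Neurog2 and Eomes (lower in Chd8+/-) and Hopx (higher).

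The same comparison in Chd8+/- tissue gave calls for all 10 genes again, 8 lower and 2 higher, where 83.2% of 18894 genes passed the adjusted p of 0.05, 41.5% lower and 41.7% higher. Falls of more than 2-fold were called for 20% of all genes and rises of more than 2-fold for 26.1%, and DESeq2 called 60.8% of 25661 genes and all 10. Neurog2 was at 117, 109 and 111 CPM at E12.5 and at 1.41, 1.24 and 0.732 CPM at P5, with a log2 change of -6.64 (SE 0.146, edgeR adjusted p = 4.56e-10). Replicate 3 at P5 was the lowest library of this gene, on 34 counts, which has a 95% Poisson interval of 23.5 to 47.5 counts for counting error alone. Eomes was at 166, 125 and 153 CPM and then at 3.00, 3.62 and 3.36 CPM, with a log2 change of -5.46 (SE 0.134, edgeR adjusted p = 8.13e-10). Among the E12.5 libraries of Eomes, replicate 2 lay below the others, and the stages did not overlap for either gene. That replicate also had the highest summed level of meningeal markers, 1069 CPM against 511 to 785 CPM in the other E12.5 libraries. The part of this in the level of Eomes was not tested.

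Nes and Vim changed by -4.15 and -3.67 in Chd8+/- tissue, Pax6 and Emx2 by -3.78 and -3.48, and Sox2 and Sox9 by -2.42 and -2.59 (log2 fold changes). Fabp7 was at 257, 221 and 263 CPM at E12.5 and at 475, 463 and 496 CPM at P5, a log2 change of 0.96 (SE 0.0748, edgeR adjusted p = 1.76e-06). Hopx was at 8.05, 6.69 and 9.64 CPM and then at 12.7, 11.7 and 10.7 CPM, a log2 change of 0.54 (SE 0.139, edgeR adjusted p = 0.00552). The stages did not overlap for either gene.

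**Figure D2:**
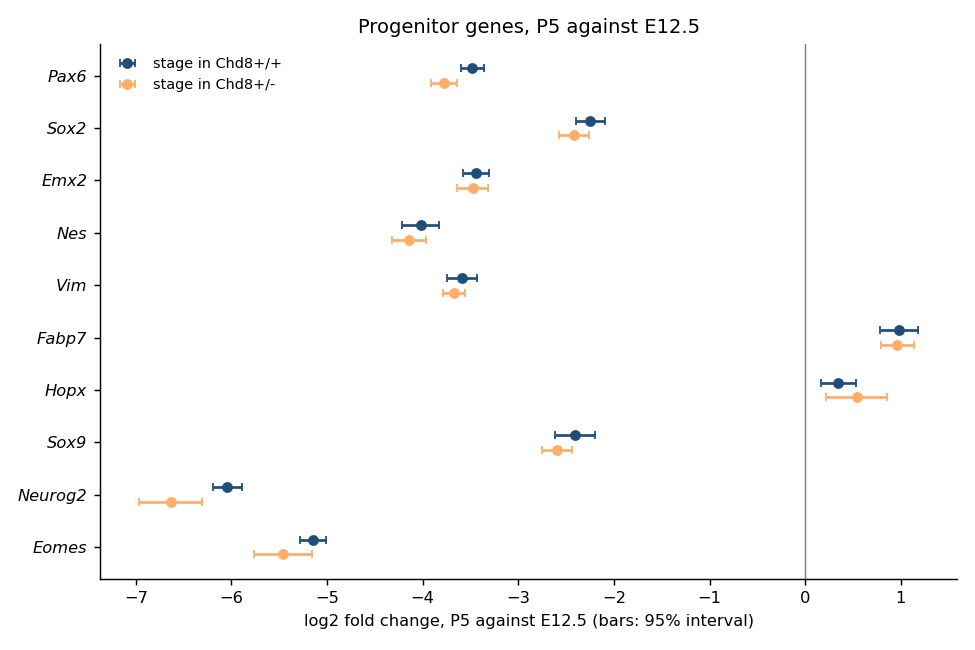
log2 fold change of each gene from E12.5 to P5 in Chd8+/+ and in Chd8+/- libraries, with 95% intervals from edgeR and n = 3 libraries per group. Neurog2 and Eomes lie furthest to the left in both genotypes, and only Fabp7 and Hopx lie to the right of 0.

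Per kilobase of merged exons, which scales genes of unlike length, the order of the 10 genes differed between the stages. Merged exons join all annotated exons of a gene (11694 bases for Pax6). The lengths of the transcripts present were not measured, so the order within a stage depends on the annotation. Before this scaling, Pax6 and Eomes were level in the E12.5 Chd8+/+ libraries, at 152 and 153 CPM on average. In E12.5 Chd8+/+ tissue the order ran from Vim (234 ± 12.7 CPM per kilobase, SD, n = 3) through Fabp7 (188 ± 15.01), Nes (129 ± 8.88) and Sox2 (106 ± 9.65) to Pax6 (13.01 ± 0.637) and Hopx (5.37 ± 0.416) at the bottom. Neurog2, Emx2, Eomes and Sox9 stood between, from 46.2 down to 29.8 CPM per kilobase, and Emx2 and Eomes overlapped between libraries. In P5 Chd8+/+ tissue Fabp7 was first at 372 ± 47.9 CPM per kilobase, and made up 84.4% of the summed level of the 10 genes, against 22.7% at E12.5. Sox2 (22.4 ± 1.30) and Vim (19.5 ± 1.04) followed, then Nes, Hopx, Sox9, Emx2 and Pax6. Eomes (1.04 ± 0.0734) and Neurog2 (0.700 ± 0.0204) were last. In P5 Chd8+/- tissue the order was the same except that Hopx (7.73 ± 0.681) stood above Nes (7.37 ± 0.221), 2 neighbours whose libraries overlap, as do Sox2 and Vim there.

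The ratios between members moved with these levels, and their size within a stage depends on the same annotated exon lengths. The level of Fabp7 per kilobase was 0.774 to 0.842 times that of Vim in the E12.5 Chd8+/+ libraries and 17.5 to 20.6 times at P5. The ratio of Eomes to Pax6 in the same libraries was 2.63 to 2.93 at E12.5 and 0.818 to 0.963 at P5, and that of Neurog2 to Pax6 went from 3.38 to 3.66 down to 0.570 to 0.622.

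**Figure D3:**
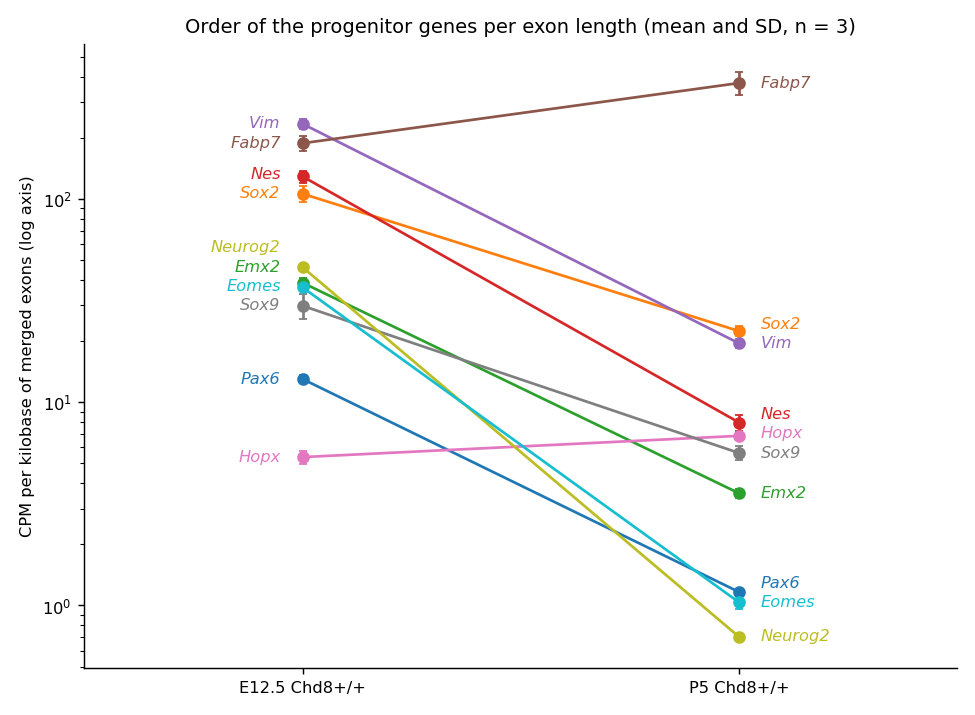
Level of each gene per kilobase of merged exons in Chd8+/+ tissue at E12.5 and P5, on a log axis, as the mean with the SD of 3 libraries. Fabp7 rises from the second place to the first, Hopx crosses Sox9, Emx2, Eomes, Neurog2 and Pax6 (lines that fall), and Neurog2 drops to the last place.

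Other genes of these cells were counted from 2 lists, radial glia (32 genes) and intermediate progenitors with the neurogenic steps (24 genes), which leave out the 10. Of the 32 radial glia genes, 22 fell and 10 rose between the stages in Chd8+/+ tissue, 19 and 6 of them by more than 2-fold, with a median log2 fold change of -1.38. Of all genes tested 42.3% fell and 41.7% rose, 20% and 26.1% by more than 2-fold. The furthest falls were those of Hmga2 (389 to 0.395 CPM, log2 fold change -9.92), a chromatin protein of early stem cells, Dmrt3 (-5.61), Tfap2c (-5.12) and Gli3 (-4.69), an effector of hedgehog signalling. The furthest rises were those of Tnc (tenascin C, 5.88 to 178 CPM, log2 fold change 4.92), Fam107a (3.36), Moxd1 (2.74) and Aldoc (2.46), an aldolase of astrocytes. In Chd8+/- tissue 22 genes fell and 10 rose as well, with Hmga2 (-9.89), Dmrt3 (-5.59), Tfap2c (-5.04) and Gli3 (-4.79) lowest and Tnc (3.76), Fam107a (2.27), Slc1a3 (2.24) and Moxd1 (2.23) highest.

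Of the 24 neurogenic genes, 19 fell, 4 rose and 1 (Tcf4) did not pass the threshold in Chd8+/+ tissue, where 42.3% of all genes fell and 41.7% rose, with a median log2 fold change of -2.17. Neurog1, a relative of Neurog2, had 419 to 665 counts in the E12.5 Chd8+/+ libraries and 0 to 1 count in the P5 ones. Nhlh1 (-6.31), Neurod4 (-3.98) and Mfng (-3.88), a modifier of Notch receptors, followed. Plcb1 (2.71), Unc5d (2.30), Rbfox2 (0.51) and Sstr2 (0.34) rose. In Chd8+/- tissue 19 fell and 3 rose. Neurog1 had 495 to 594 counts and then 0 to 4, followed by Nhlh1 (-6.23), Neurod4 (-4.13) and Nhlh2 (-4.08), while Plcb1 (2.73), Unc5d (2.39) and Rbfox2 (0.47) rose.

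Markers of other cells changed between the stages as well, where 84% of all genes tested were called, 42.3% lower and 41.7% higher. The 8 markers of proliferating cells all fell in Chd8+/+ tissue, with a median log2 fold change of -4.37 and a summed level of 2969 to 3198 CPM at E12.5 and 165 to 184 CPM at P5. Of the 8 ventral progenitor markers 7 fell, and the other, Olig2, was at 39.2 and 41.4 CPM. Of the 9 astrocyte markers, 8 rose, with a summed level of 266 to 282 CPM and then 1276 to 1342 CPM. The 9 markers of postmitotic excitatory neurons gave 8 rises, from a summed 3139 to 3675 CPM to 6195 to 6419 CPM. All 5 oligodendrocyte precursor markers and all 6 microglia markers rose. Of the vascular and border lists, 3 endothelial markers fell and 3 rose, 1 pericyte marker fell and 3 rose, 6 meningeal markers fell and 1 rose, and 2 choroid plexus markers fell and 4 rose. No marker of these lists was at 0 in all 3 libraries of a group. The part of each cell type in the levels of Fabp7, Hopx and the others was not tested.

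**Figure D4:**
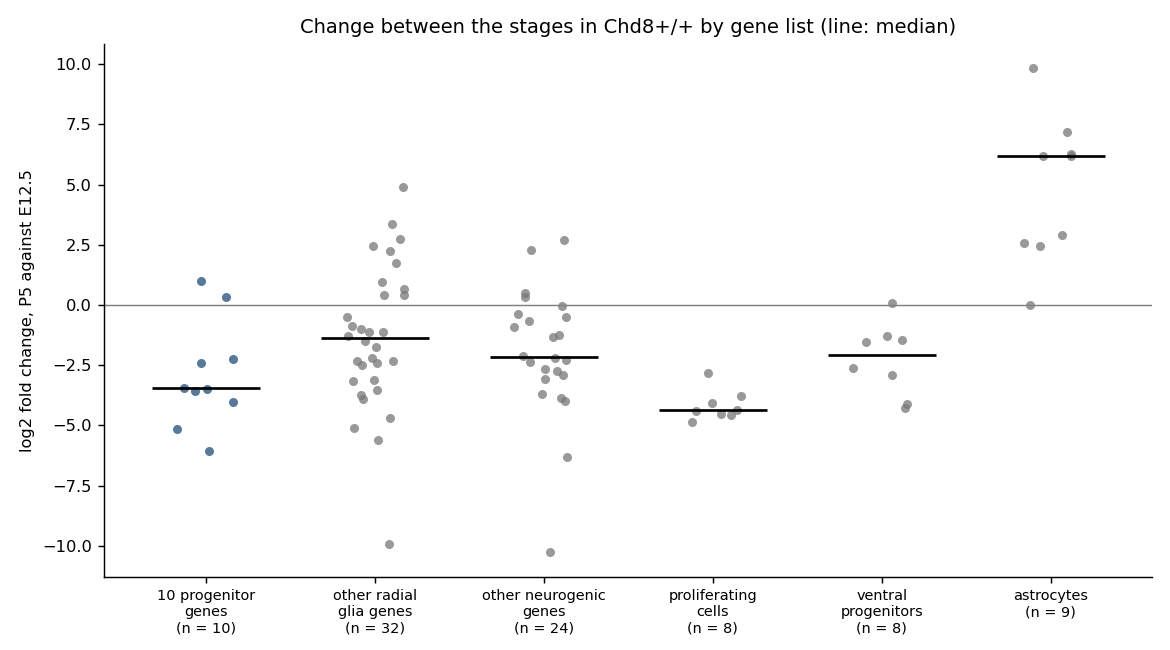
log2 fold change from E12.5 to P5 in Chd8+/+ tissue for the 10 genes and for the members of 5 other lists, with a point for each gene and a line at the median. The medians are -3.46 for the 10 genes and -4.37 for the proliferation markers against 6.19 for the astrocyte markers, and the lowest point of the neurogenic list, Neurog1, rests on 0 to 1 count at P5.

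Whether the loss of 1 Chd8 allele changed these genes was asked next, stage by stage. At E12.5 none of the 10 passed an adjusted p of 0.05 in edgeR's quasi-likelihood test, where 0.00553% of 18081 genes passed (Chd8 alone), and none passed in DESeq2, which called 0.0374% of 13360 genes. Neurog2 was the only one with an unadjusted p under 0.05, which 5.15% of all genes had and 2.31% had in the higher direction. It was also the only one whose genotypes did not overlap, higher in Chd8+/- libraries, as were 5.6% of all genes. It was at 103, 101 and 105 CPM in Chd8+/+ and 117, 109 and 111 CPM in Chd8+/- libraries, a log2 change of 0.13 (SE 0.0417, edgeR adjusted p = 0.942). Every Chd8+/- library was above every Chd8+/+ library, by a margin that the adjustment over all genes did not pass.

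Pax6 was at 163, 164 and 155 CPM in the E12.5 Chd8+/- libraries against 159.5, 145 and 152 CPM, a difference of 5.46% (95% interval -1.54% to 12.97%). Sox2 was at 226, 215 and 227 CPM, a difference of 1.76% (-7.93% to 12.5%), and Emx2 at 116, 107 and 120.4 CPM, a difference of -1.54% (-9.47% to 7.08%). The genotypes overlapped for all 3. Nes was at 776, 939.7 and 817 CPM (1.83%, -10.1% to 15.4%) and Vim at 1094, 1117 and 1048 CPM (-2.37%, -11.0% to 7.12%). Sox9 was at 126, 133 and 129 CPM (4.94%, -7.87% to 19.5%), and Fabp7 differed by 5.02% (-7.36% to 19.1%). Eomes differed by -3.15% (-15.6% to 11.2%) and Hopx by -0.0920% (-18.9% to 23.1%), the widest interval of the 10. The signs of the differences of Sox2, Emx2, Nes, Hopx, Sox9 and Eomes turned when single libraries were left out. Without single libraries the log2 difference of Fabp7 (0.07) ran from 0.01 (without Chd8+/+ replicate 1) to 0.15 (without Chd8+/- replicate 2), and that of Vim (-0.03) from -0.08 (without Chd8+/+ replicate 1) to -0.0063 (without Chd8+/+ replicate 2). That of Pax6 went from 0.08 to 0.05 without Chd8+/+ replicate 2.

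The lists gave no call at E12.5 either. Of the 32 radial glia genes none passed the adjusted p of 0.05 in edgeR's test, nor did the 31 to which DESeq2 gave an adjusted p. In edgeR 2 of them had an unadjusted p under 0.05, both higher in Chd8+/- libraries. Of the 24 neurogenic genes none passed in either tool, and 1 had an unadjusted p under 0.05 in edgeR, also higher. Of all genes 5.15% had an unadjusted p under 0.05, and 2.31% had it in the higher direction. The summed level of the proliferation markers was 2969 to 3198 CPM in Chd8+/+ and 3062 to 3267 CPM in Chd8+/- libraries, with overlap. Endothelial markers were at a summed 246 to 250.1 CPM against 219 to 230.0 CPM and astrocyte markers at 266 to 282 CPM against 294 to 313 CPM, without overlap, and their part in the level of Neurog2 was not tested. Most of the astrocyte sum came from Gja1 (141 against 146 CPM on average), Slc1a2 (93.7 against 110 CPM) and Aldoc (34.0 against 40.8 CPM). Aldoc is in the radial glia list too. Of the 6 astrocyte markers tested, 5 were above 0, 1 (Aqp4) was below, and none passed in edgeR. Gfap, S100b and Ntsr2, at most at 0.177 CPM on average, were not tested.

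At P5 again none of the 10 genes passed the adjusted p of 0.05, where 0.00536% of 18666 genes passed in edgeR's quasi-likelihood test (Chd8 alone), and DESeq2 called 5.28% of 12362 genes. DESeq2 gave an adjusted p to 8 of the 10, none of which passed (lowest 0.175 from DESeq2), and gave none to Neurog2 and Eomes, which therefore could not be called there. Of the 10 genes, 8 had lower fitted levels in Chd8+/- tissue and 2, Fabp7 and Hopx, had higher ones, where 49.6% of all genes were below 0. At an unadjusted p under 0.05, which 17.8% of all genes had, Pax6, Vim and Eomes were lower (9.77% of all genes) and Hopx was higher (8%). The genotypes did not overlap for these 4 genes and for Neurog2, 4 lower and 1 higher, where 14.8% of all genes were lower and 8.55% higher without overlap. The median log2 fold change of the 10 was -0.11 and that of all genes was 0.00.

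Eomes had the smallest adjusted p of the 10 at P5. It was at 4.45, 4.50 and 3.95 CPM in Chd8+/+ and 3.00, 3.62 and 3.36 CPM in Chd8+/- libraries, and replicate 1 of the Chd8+/- libraries was the lowest. The log2 change was -0.36 (SE 0.112, edgeR adjusted p = 0.156), on 179 to 239 counts against 125 to 156. Neurog2 was at 1.53, 1.54 and 1.61 CPM against 1.41, 1.24 and 0.732 CPM, with a log2 change of -0.46 (SE 0.218, edgeR adjusted p = 0.310). Its Chd8+/- libraries scattered more than its Chd8+/+ libraries, with SDs of 0.355 and 0.0454 CPM, and without Chd8+/- replicate 3 the log2 fold change was -0.20.

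Pax6 was at 14.1, 13.2 and 13.6 CPM in Chd8+/+ and 10.6, 11.9 and 12.3 CPM in Chd8+/- libraries at P5. The log2 change was -0.21 (SE 0.0747, edgeR adjusted p = 0.186). Vim was at 94.6, 95.9 and 86.8 CPM against 86.2, 83.5 and 83.9 CPM, a log2 change of -0.11 (SE 0.0407, edgeR adjusted p = 0.199). For both genes each Chd8+/- library was below each Chd8+/+ library, for Vim by a narrow margin. Hopx was at 10.6, 10.2 and 10.3 CPM against 12.7, 11.7 and 10.7 CPM, a log2 change of 0.19 (SE 0.0797, edgeR adjusted p = 0.247), and Chd8+/- replicate 1 was the highest. Without that library the log2 change of Hopx was 0.13.

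For the other 5 genes the genotypes overlapped at P5. Sox2 was at 47.4, 47.8 and 43.0 CPM against 37.1, 45.0 and 41.3 CPM, a difference of -9.63% (95% interval -18.6% to 0.387%). Sox9 differed by -7.52% (-18.4% to 4.86%), Nes by -6.27% (-14.8% to 3.10%) and Emx2 by -3.64% (-14.3% to 8.31%). Single libraries moved these values: on the log2 scale, Sox2 went from -0.15 to -0.08 and Sox9 from -0.11 to -0.03 without Chd8+/- replicate 1. Nes went from -0.09 to -0.16 without Chd8+/+ replicate 3 and to -0.05 without Chd8+/+ replicate 1, and Emx2 from -0.05 to -0.01 without Chd8+/- replicate 3 and to -0.10 without Chd8+/- replicate 2. Fabp7, at 476, 519 and 401 CPM against 475, 463 and 496 CPM, differed by 3.97% (-7.46% to 16.8%), and its difference turned to -0.03 on the log2 scale without Chd8+/+ replicate 3. Offsets for gene length moved the log2 difference of Fabp7 from 0.06 to 0.02 and that of Nes from -0.09 to -0.05.

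**Figure D5:**
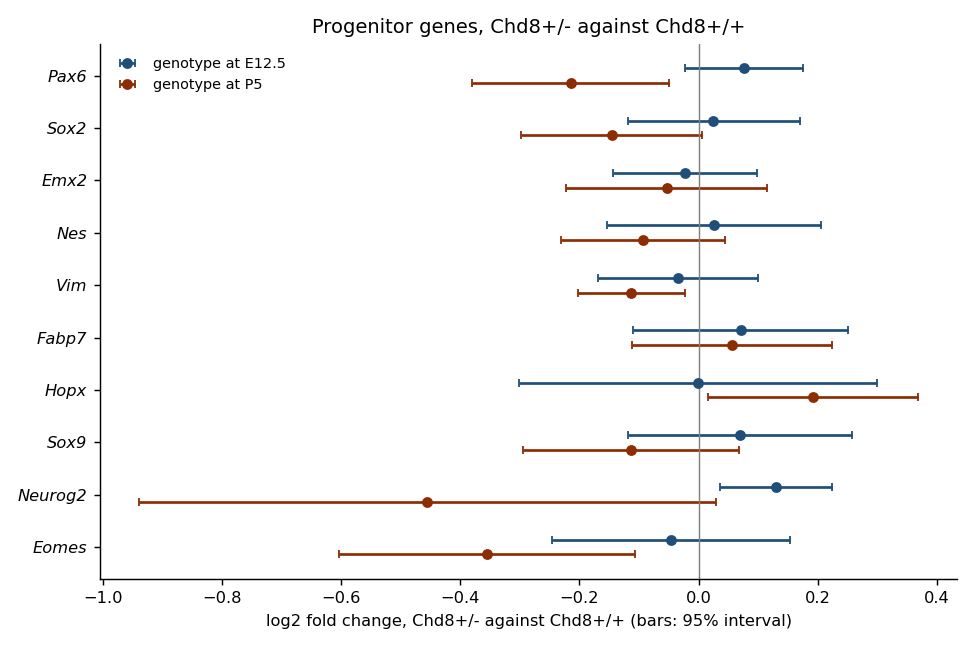
log2 fold change of each gene between Chd8+/- and Chd8+/+ libraries at E12.5 and at P5, with 95% intervals from edgeR and n = 3 libraries per group. The intervals of Pax6, Vim and Eomes lie below 0 at P5, those of Neurog2 at E12.5 and of Hopx at P5 lie above it, and the other 15 include 0, before adjustment over all genes.

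Of the 32 radial glia genes none passed the adjusted p of 0.05 between genotypes at P5 in edgeR's test, and 5 were lower and 4 higher at an unadjusted p under 0.05, where 9.77% and 8% of all genes were, with a median log2 fold change of -0.03. The smallest adjusted p in the list was 0.0973. DESeq2 called 3 of the 27 to which it gave an adjusted p, against 5.28% of all genes, and all 3 were lower in Chd8+/- tissue: Cdh2, which encodes N-cadherin (log2 change -0.19, DESeq2 adjusted p = 0.00136), Notch1, a receptor that maintains progenitors (-0.21, DESeq2 adjusted p = 0.0247), and Id4, an inhibitor of bHLH factors (-0.34, DESeq2 adjusted p = 0.0259). The summed level of the list was 2890 to 3074 CPM in Chd8+/+ and 2596 to 2857 CPM in Chd8+/- libraries, without overlap. The mean sum was 2973 CPM against 2749 CPM, and Ptprz1, a receptor phosphatase that made the greater part of that difference, was at 772 CPM against 642.5 CPM on average (edgeR adjusted p = 0.165).

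Of the 23 neurogenic genes tested in edgeR none passed, and 5 were lower and 0 higher at an unadjusted p under 0.05, where 9.77% and 8% of all genes were, with a median of -0.05. DESeq2 called 2 of 21, against 5.28% of all genes, both lower: Sox4 (-0.25, DESeq2 adjusted p = 0.0309) and Elavl2 (-0.17, DESeq2 adjusted p = 0.0379). The genes called by DESeq2 alone are named here after their values were seen. The summed level of this list was 2027 to 2133 CPM in Chd8+/+ and 1977 to 2032 CPM in Chd8+/- libraries, with overlap. Markers of other cell types stood apart between the genotypes at P5 as well. Choroid plexus markers had a summed level of 445 to 577 CPM in Chd8+/+ and 324 to 383 CPM in Chd8+/- libraries, and all 7 were below 0, 6 of them at an unadjusted p under 0.05. Endothelial markers were at a summed 227 to 257 CPM against 204 to 225 CPM, and 6 of 7 were lower at an unadjusted p under 0.05. Pericyte markers (251 to 279 against 228 to 247 CPM) and ventral progenitor markers (193 to 201 against 177 to 191 CPM) were lower too, and the genotypes did not overlap in the summed level of any of these 4 lists. DESeq2 called 3 choroid plexus, 3 endothelial and 1 pericyte marker, all lower, 2 of the 9 postmitotic excitatory neuron markers, Neurod6 (log2 change -0.14, DESeq2 adjusted p = 0.0484) and Bcl11b (-0.28, DESeq2 adjusted p = 0.00146), also lower, and none of the 5 ventral progenitor markers to which it gave an adjusted p. The neuron markers had a summed level of 6195 to 6419 CPM against 5831 to 6200.2 CPM, with overlap. The proliferation markers were at 165 to 184 CPM against 149.7 to 176 CPM, with overlap, and the astrocyte markers at 1276 to 1342 CPM against 1149 to 1335 CPM, with overlap. No marker of these lists was at 0 in a group, and their part in the levels of Pax6, Vim, Eomes and Hopx was not tested.

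A direct test of whether the genotype difference changed between the stages called none of the 10 genes in edgeR's quasi-likelihood test over the 12 libraries, where 0% of 19676 genes passed, and none of the 9 to which DESeq2 gave an adjusted p (all but Hopx), where DESeq2 called 0.0938% of 8533 genes. The lowest adjusted p from DESeq2 was 0.0990, that of Pax6. Of the 10 interaction terms, 9 were below 0, where 54.2% of all genes were. Pax6 (-0.31 on the log2 scale, SE 0.0792, edgeR adjusted p = 0.362) and Neurog2 (-0.61, SE 0.180, edgeR adjusted p = 0.362) had an unadjusted p under 0.05, which 10% of all genes had and 6.87% had in this direction. For Neurog2 the Chd8+/- libraries were all above the Chd8+/+ libraries at E12.5 and all below them at P5. Eomes had a term of -0.33 (SE 0.154, edgeR adjusted p = 0.49998), and Hopx alone was above 0, at 0.18 (SE 0.161, edgeR adjusted p = 0.727). In the lists, 0 of 32 radial glia genes and 0 of 24 neurogenic genes passed in edgeR, and none of the 28 and 20 to which DESeq2 gave an adjusted p passed there, with 7 and 6 at an unadjusted p under 0.05 in edgeR.

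The genes whose pattern was most like that of each member over the 12 libraries (Pearson r of log2(CPM + 1) among 17136 genes) are given as a description. The libraries fall into 2 clusters by stage, so that r mostly measures the step between the stages. For Pax6 these were Atad5, Alms1 and Plagl1 (r = 0.9995 each), and 2473 genes had an r above 0.99. For Eomes they were Ints8, Top1 and Cul1, and for Neurog2 F2r, Mthfd2l and Kif20a. Emx2 was closest to Ezh2 (r = 0.9998), Topbp1 and Dbf4, Sox2 to Rock1, Suz12 and Baz1a, and Sox9 to Fip1l1, Szrd1 and Smarcc1. Nes was closest to Mest, Ctbp2 and Ddr1, and Vim to Mfng, Jpt2 and Imp4. Fabp7 (Lancl3, Isca1 and Cox5a, highest r = 0.9960, 29 genes above 0.99) and Hopx (Pdss2, Wrb and Tmem41a, highest r = 0.9498, 0 genes above 0.99) had fewer genes near them.

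Pax6, Sox2 and Emx2 also have annotated neighbours that overlap them. Emx2os, on the opposite strand, shares 264 exon bases with Emx2, 8.79% of its exon length, and was at 18.3 to 20.3 CPM in E12.5 Chd8+/+ and 3.33 to 3.80 CPM in P5 Chd8+/+ libraries, a log2 change of -2.46 (SE 0.0841, edgeR adjusted p = 4.36e-11). Pax6os1, on the opposite strand, and Sox2ot, on the same strand as Sox2, share no exon bases with their neighbours. Sox2ot went from 58.6 to 67.6 CPM down to 20.4 to 24.4 CPM, a 2.85-fold fall against 4.74-fold for Sox2. Pax6os1 was at 0.773 to 1.10 CPM and then at 0.0372 to 0.230 CPM.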

How the data were processed

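RNA was sequenced from 12 neocortex libraries, 3 per genotype and stage, grouped by their labels. The authors trimmed the reads, aligned them to GRCm38 and deposited gene-level counts for 46603 Ensembl identifiers, with 2 runs per library in separate columns. The submitters' processing notes name Trim Galore 0.4.1, FastQC 0.11.2, TopHat2 2.1.0, featureCounts 1.5.0 and DESeq2 1.10.1. The counting command for E12.5 is not given in the sources used here. The deposited gene lengths were used for levels per kilobase.

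The counts of the runs were summed (chi-squared per degree of freedom between runs 1.18 to 1.54), giving 38774591 to 54695236 counts per library. No column was left unmapped. Symbols were found for 46005 identifiers. edgeR 4.0.16 (R 4.3.3) was run with filterByExpr, TMM scaling and the quasi-likelihood test, on the libraries compared or on all 12 for the interaction, with Benjamini-Hochberg adjustment over all genes tested at 0.05. CPM are counts scaled by the TMM library sizes. The fits were tested on simulated data. For genotype at P5, 6.12%, 26%, 53.1% and 79.6% of simulated log2 changes of 0.2, 0.3, 0.5 and 1 were called. For genotype at E12.5 these shares were 2.08%, 28%, 51% and 88%. Unchanged genes made up 8.99% of the calls at P5 and 11.6% at E12.5. A missing call therefore does not show that a small difference is absent.

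The alternatives were RLE scaling, DESeq2 1.42.0, limma-voom (limma 3.58.1), every gene with at least 1 count, at least 1 CPM in 3 libraries, a replicate block, all 12 libraries in 1 model, offsets for gene length and leaving out each library. A term for Xist (above or below 1000 counts) was added after seeing the data.

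Text names the 10 genes, their overlapping genes, up to 4 called genes per direction from each of the 2 pathway lists, the 3 genes most alike to each member (log2 of CPM with a pseudocount of 1) and Chd8. Emx1, Dlx2, Nkx2-1, Olig2, Aqp4, Gfap, S100b, Ntsr2, Gja1, Slc1a2, Tcf4, Ptprz1, Neurod6, Bcl11b and Xist are named outside this rule. Marker lists covered proliferating cells, ventral progenitors, excitatory neurons, astrocytes, oligodendrocyte precursors, microglia, endothelium, pericytes, meninges and choroid plexus. The members and lists were chosen with earlier results of these data known.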

Additional observations from a re-analysis of the deposited data

Results flagged for a closer look

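For Neurog2 the fitted genotype difference had opposite signs at the 2 stages, and neither passed on its own. It was 0.13 at E12.5 (edgeR adjusted p = 0.942) and -0.46 at P5 (95% interval -0.94 to 0.03, edgeR adjusted p = 0.310). The P5 value ran from -0.65 to -0.20 without single libraries. Every Chd8+/- library was above every Chd8+/+ library at E12.5 (109 to 117 against 101 to 105 CPM) and below it at P5 (0.732 to 1.41 against 1.53 to 1.61 CPM). Of all genes 5.6% were higher without overlap at E12.5 and 14.8% lower at P5. The interaction of genotype and stage was -0.6064 on the log2 scale (95% interval -0.99 to -0.22), with an unadjusted p of 0.00472 and an adjusted p of 0.362 in edgeR's quasi-likelihood test, so that it did not pass the correction over 19676 genes. Leaving out single libraries gave -0.80 to -0.36.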

How the results depend on the processing

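All 10 genes were called in both stage comparisons, and none in the genotype and interaction comparisons, under the alternatives run for each and without each library in turn. Length offsets were run for the genotype comparisons only, the model of all 12 libraries is itself the interaction fit, and DESeq2 gave no adjusted p to Neurog2 and Eomes at P5 or to Hopx in the interaction. Over all genes, the count called between genotypes at E12.5 was 1, and became 5 with DESeq2, 13 with every gene of at least 1 count, 2 with all 12 libraries in 1 model, 0 with the term for Xist chosen after seeing the data and 0 with the replicate block, and 0 to 2 when libraries were left out. At P5 it was 1, and became 653 with DESeq2, 995 with every gene of at least 1 count, 4 with the replicate block and 4 with all 12 libraries, and 1 to 327 when libraries were left out (327 without Chd8+/- replicate 2). The interaction went from 0 to 8 with DESeq2, to 17 with every gene of at least 1 count, and to between 0 and 2 when libraries were left out. The cause of these shifts was not tested.

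Same-numbered replicates correlated at -0.342, -0.155 and -0.193 at E12.5 and at 0.272, 0.106 and 0.019 at P5 in their deviations from the group means, so the numbers were not taken to pair samples. Signs turned for small genotype differences. Hopx at E12.5 was 0.0012 with the term for Xist. Without single libraries, the E12.5 log2 differences ran from -0.0438 to 0.063 for Sox2, -0.061 to 0.0252 for Emx2, -0.055 to 0.0834 for Nes, -0.1471 to 0.1265 for Hopx, -0.0182 to 0.1775 for Sox9 and -0.1374 to 0.064 for Eomes. At P5 Fabp7 ran from -0.0339 to 0.1416, and the interaction from -0.0983 to 0.0131 for Emx2 and -0.1275 to 0.0559 for Fabp7. Depth limits Neurog2 at P5, where a library held 34 to 82 counts.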
